A study of Mus musculus with 6 samples.

Results

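The myosin light chain genes described here are Myl1, Mylpf, Myl2, Myl3, Myl4, Myl6 and Myl6b, together with Mylk2, the kinase of skeletal muscle that phosphorylates the regulatory light chain. They were chosen by name: their rows were found in the count table through the Ensembl identifiers, which gave 8 of 8 genes among 55416, and all 8 passed the filter on low counts that left 15623 genes for the test. RNA sequencing was performed on the tibialis anterior (TA) muscle, a fast muscle of the lower hindlimb, of wild-type (WT) and SELENOW knockout (KO) mice aged 24 months, with 3 libraries of each genotype, to ask how loss of SELENOW, a small selenoprotein, alters gene expression in aged muscle. The KO was made by removing exon 4 with a pair of guide RNAs and is not limited to muscle. The study's mice were on a C57BL/6N background, and its methods give them as male unless stated otherwise. Neither genotype received any agent in this experiment. Each library is whole muscle tissue, and the replicates of a genotype are separate mice.

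Every skeletal myosin motor carries a pair of light chain types on the neck of its heavy chain. Essential light chains stiffen the lever arm, and in this set they are Myl1 in fast fibers, Myl3 in slow fibers and the ventricle, Myl4 in embryonic muscle and the atrium, Myl6 in smooth muscle and non-muscle cells, and Myl6b, which accompanies Myl3 in slow muscle and is also found in non-muscle cells. Regulatory light chains sit nearer the rod and can be phosphorylated, and here they are Mylpf in fast fibers and Myl2 in slow fibers and the ventricle. When calcium rises, calmodulin switches on Mylk2, the added phosphate strengthens twitch force, and myosin phosphatase takes it off again. In adult fast muscle such as the TA the slow and embryonic forms are minor, and embryonic forms return for a time in fibers that regenerate.

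Positions in the deposited table are those of mouse build GRCm39. By that table Myl1 lies on the minus strand of chromosome 1 from 66963454 to 66984563, Mylpf on the plus strand of chromosome 7 from 126808062 to 126813470, and Myl2 on the plus strand of chromosome 5 from 122239014 to 122251535. Myl3 lies on the plus strand of chromosome 9 from 110570929 to 110598866, Myl4 on the plus strand of chromosome 11 from 104441489 to 104486579, and Mylk2 on the plus strand of chromosome 2 from 152753272 to 152764988. Myl6, from 128326729 to 128330014, and Myl6b, from 128330026 to 128334554, are neighbours on the minus strand of chromosome 10, with 11 bases between the end of Myl6 and the start of Myl6b and no exon in common. A count is a sum over all exons of a gene, so Myl1, whose long and short forms of the fast essential chain come from separate starts, has a single value per library.

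To show the sequence next to the starts of some of these genes, promoter stretches were taken from RefSeq on build GRCm38.p6, which has other coordinates than the count table. RefSeq gave promoters for 7 of the 8 genes. The genes shown were chosen by role or by their results. Mylpf is the dominant regulatory chain, Myl3 the slow essential chain, Myl4 the embryonic one, and Myl6 and Myl6b are the neighbours with KO libraries below WT or past a threshold. In lower case, 5′ to 3′ on the gene's strand, the stretches are Mylpf chr7:127211358-127211607 (plus), Myl3 chr9:110763428-110763645 (plus), Myl4 chr11:104550484-104550662 (plus), Myl6 chr10:128493046-128493259 (minus, the downstream of its 2 starts) and Myl6b chr10:128498686-128498935 (minus). Capitals mark an E-box (CANNTG, the core bound by factors such as Myod1 and Myog) or a CArG box (the site bound by serum response factor), and bases inside exons were left out.
Mylpf: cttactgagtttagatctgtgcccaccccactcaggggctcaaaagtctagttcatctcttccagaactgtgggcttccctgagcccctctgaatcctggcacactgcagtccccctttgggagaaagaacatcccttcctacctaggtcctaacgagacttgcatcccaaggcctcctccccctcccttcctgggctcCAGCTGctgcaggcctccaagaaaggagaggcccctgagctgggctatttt
Myl3: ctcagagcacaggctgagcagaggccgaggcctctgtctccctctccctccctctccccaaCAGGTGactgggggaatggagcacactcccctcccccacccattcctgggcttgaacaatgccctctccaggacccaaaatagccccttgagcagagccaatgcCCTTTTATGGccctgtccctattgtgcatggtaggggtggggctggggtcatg
Myl4: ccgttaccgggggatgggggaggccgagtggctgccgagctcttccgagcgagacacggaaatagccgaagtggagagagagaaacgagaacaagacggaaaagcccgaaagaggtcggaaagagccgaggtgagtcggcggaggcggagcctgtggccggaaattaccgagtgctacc
Myl6: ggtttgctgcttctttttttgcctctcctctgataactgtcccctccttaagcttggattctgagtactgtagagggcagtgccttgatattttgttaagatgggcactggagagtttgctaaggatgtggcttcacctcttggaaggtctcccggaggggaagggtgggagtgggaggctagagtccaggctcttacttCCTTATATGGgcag
Myl6b: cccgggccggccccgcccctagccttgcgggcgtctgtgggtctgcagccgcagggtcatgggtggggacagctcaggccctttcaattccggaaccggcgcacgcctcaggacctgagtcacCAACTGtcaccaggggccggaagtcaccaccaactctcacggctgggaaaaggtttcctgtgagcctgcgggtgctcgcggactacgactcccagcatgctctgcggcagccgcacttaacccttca

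Both strands were searched for these letters in the 250 bases before each start. The Mylpf stretch holds the E-box CAGCTG, spanning positions -51 to -46 from the start, and 13.0% of 32851 mouse promoters hold that form. Myl3 holds the E-box CAGGTG at -189 to -184 and a CArG box at -85 to -76, and Myl6 a CArG box at -50 to -41. CArG boxes occur in 1.47% of all promoters, and E-boxes of any form in 66.2%, with a median of 1 per promoter. Myl6b holds the E-box CAACTG at -127 to -122, and in the Myl4 window none of the searched letters were found. Of the stretches not shown, Myl1 holds CAGCTG at -224 to -219, Myl2 holds CATCTG at -22 to -17 from its first start and CAGCTG at -130 to -125 and CATGTG at -48 to -43 from its second, and the upstream start of Myl6 has CATCTG at -71 to -66. No MEF2 site, a motif found in 1.69% of promoters, was matched in any of the 7 genes. A match is a description of letters and says nothing about binding in these muscles.

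The libraries held 25351976 to 29111213 counts in WT and 27345022 to 27815342 in KO. Mitochondrially encoded genes took 29.1% to 37.3% of counts in WT and 35.4% to 40.3% in KO. Values below are CPM (counts scaled to a fixed library size) scaled by TMM factors, and levels of different genes are compared only per kilobase (kb) of the counted gene length. The tissue label was checked against muscle markers: Ckm, Acta1, Myh4, Actn3, Pvalb, Atp2a1 and Mb summed to 65016 to 87347 CPM in WT and 72111 to 87340 in KO, led by Myh4, the fast IIb heavy chain. The targeted gene Selenow was at 268, 245 and 219 CPM in WT and 193, 212 and 210 in KO, so the genotypes did not overlap and KO was the lower (p = 0.1 in an exact permutation test, two-sided, which 3 against 3 cannot go under). Its log2 fold change was -0.25 (SE 0.14, edgeR quasi-likelihood test, adjusted p = 0.604), and counts over the whole gene do not test the loss of exon 4. WT replicate 3 was the highest of the 6 libraries for Myl4, Myl6b, the slow troponins Tnni1, Tnnt1 and Tnnc1, the collagens Col1a1 and Col3a1 and the leukocyte gene Ptprc, and the results of Myl4, Myl6b and the fiber genes it leads are given with and without it.

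In aged TA muscle the light chains were those of fast fibers, in either genotype. Mylpf was the highest of the 8 genes at 5420 ± 130 CPM per kb in WT and 4984 ± 710 in KO (SD, n = 3), and Myl1 followed at 2743 ± 116 and 2692 ± 98.6. Among the genes tested they ranked 27th and 38th by level per kb in WT and 27th and 42nd in KO. The next were Mylk2 at 123 ± 35.6 and 158 ± 40.4 CPM per kb, Myl6 at 20.2 ± 0.816 and 16.5 ± 2.64, and Myl3 at 8.50 ± 4.29 and 5.77 ± 1.91. Down to Myl3 the ranges of neighbouring genes did not overlap within a genotype. The lowest levels per kb were Myl4 at 3.44 ± 3.21 in WT and 1.10 ± 0.170 in KO, Myl6b at 2.46 ± 1.20 and 1.40 ± 0.157, and Myl2 at 0.683 ± 0.0984 and 0.545 ± 0.242. Myl3 and Myl4 overlapped in WT and not in KO, Myl4 and Myl6b overlapped in each genotype and changed places in KO by their means, and Myl2 lay below Myl6b in each genotype without overlap.

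No light chain gene had an adjusted p under 0.05 between genotypes in edgeR's quasi-likelihood test. The thresholds the study used were an unadjusted p under 0.05 with a fold change over 1.5 or under 0.7. In edgeR, Myl6b was the only gene of the 8 past them. The study applied them in DESeq2, and in DESeq2 on the same genes Myl4 (unadjusted p = 0.0292) passed beside Myl6b. Over all genes tested, 491 passed these thresholds in edgeR as lower in KO (3.14%) and 345 as higher (2.21%). The edgeR counts of 1 of 8 genes lower and 0 of 8 higher stand beside shares of that size. The share with an adjusted p under 0.05 was 0%, while 1545 genes had an unadjusted p under 0.05 and DESeq2 on the same genes gave 45 with an adjusted p under 0.05. The fold changes of all 7 light chains were below 0 and that of Mylk2 above 0, where 7911 of all 15623 genes tested were below 0. The median over the 8 genes was -0.31 on the log2 scale against -0.0042 over all genes tested. Scaling by total counts alone instead of TMM moved the median of all genes to -0.25 and the split of calls from 41.3% higher to 4.46% higher, and under it the log2 fold change of Myl6 was -0.54, past the thresholds. In whole tissue, fewer cells of a type and less RNA per cell cannot be told apart.

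**Figure D1:**
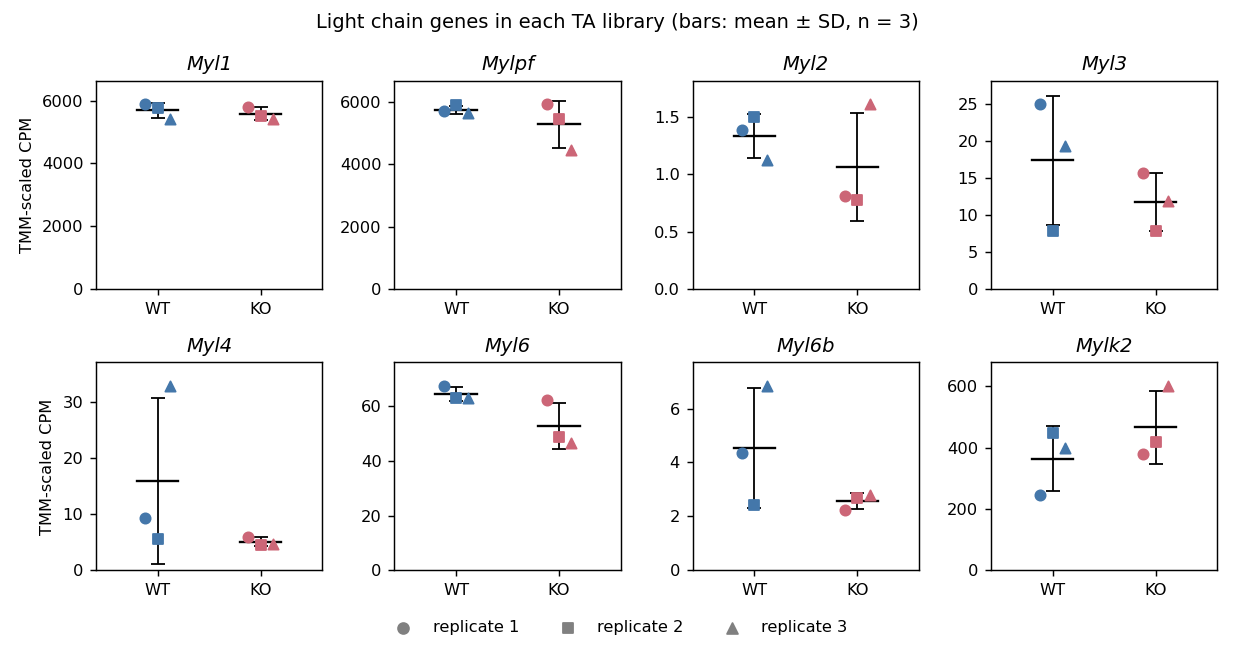
TMM-scaled CPM (y axis, from 0) of the 8 genes in the WT and KO libraries, with a marker shape for each replicate number and bars for the mean ± SD (n = 3). Myl1 and Mylpf sit near the same height in both genotypes, the 3 KO points of Myl4 lie between 4.57 and 6.0 against 5.54 to 33.0 in WT, and Myl6 alone has all KO points below all WT points.

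The major fast chains were close between genotypes. Myl1, the fast essential chain, was at 5892, 5754 and 5422 CPM in WT and 5815, 5500 and 5432 in KO. The KO values lay inside the WT range, and the log2 fold change was -0.03 (SE 0.16, edgeR quasi-likelihood test, adjusted p = 0.967). Of the 50-base windows of Myl1 transcripts, 11.7% also occur in Mylf-ps, a processed pseudogene on chromosome 12, and 65.1% of the pseudogene's windows occur in Myl1, so reads can be split between them. Mylf-ps held 2.53% to 6.12% as many counts as Myl1, and adding them to Myl1 left its log2 fold change at -0.03.

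Mylpf, the fast regulatory chain, was at 5720, 5907 and 5639 CPM in WT and 5939, 5475 and 4464 in KO. KO replicate 1 was the highest of the 6 libraries and KO replicate 3 the lowest, so the groups overlapped. The log2 fold change was -0.12 (SE 0.17, edgeR quasi-likelihood test, adjusted p = 0.844), and it was -0.01 without KO replicate 3. The ratio of Myl1 to Mylpf per kb was 0.506 ± 0.0187 in WT and 0.546 ± 0.0668 in KO (SD, n = 3), with 0.623 in KO replicate 3 and 0.492 to 0.527 in the other five libraries.

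The slow chains were present at low levels, and their genotypes overlapped. Myl3, the slow essential chain, was at 25.0, 7.78 and 19.4 CPM in WT and 15.7, 7.87 and 11.9 in KO. The lowest value was that of WT replicate 2, so every KO value lay inside the WT range. KO differed from WT by a log2 fold change of -0.55 (SE 0.51, edgeR quasi-likelihood test, adjusted p = 0.757), and without WT replicate 2 it was -0.91, past the study's thresholds with an unadjusted p of 0.00942 and an adjusted p of 0.388. Its exons share 95 bases with an exon of Pth1r on the opposite strand, and without knowledge of strand such reads cannot be told apart.

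Myl2, the slow regulatory chain, had 34, 48 and 34 counts in WT and 20, 19 and 43 in KO. As CPM these were 1.38, 1.49 and 1.12 against 0.806, 0.775 and 1.61. KO replicates 1 and 2 lay below every WT library and KO replicate 3 above every WT library. Its log2 fold change was -0.32 (SE 0.35, edgeR quasi-likelihood test, adjusted p = 0.795). The slow chains therefore did not share an order over the libraries: WT replicate 1 was highest for Myl3 and KO replicate 3 for Myl2, and their log2 CPM correlated at r = 0.0975 over the 6 libraries, a description only, since the libraries differ in genotype.

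Myl4, the embryonic and atrial essential chain, was low in every library but the third WT library. Its counts were 229, 178 and 1001 in WT and 149, 112 and 126 in KO, which are 9.29, 5.54 and 33.0 CPM against 6.0, 4.57 and 4.71. WT replicate 3 stood apart, and KO replicate 1 lay above WT replicate 2, so the groups overlapped. The log2 fold change was -1.65 (SE 0.79, edgeR quasi-likelihood test, adjusted p = 0.599, and exact permutation test p = 0.2). The unadjusted p of 0.0989 from edgeR missed the study's threshold, which the study applied in DESeq2. Without WT replicate 3 the log2 fold change was -0.54 and the unadjusted p 0.0412, with an adjusted p of 0.475, so the estimate moved by more than 1.5 times while the gene passed the study's thresholds. Without WT replicate 2 it was -2.05, also past the thresholds, and with all libraries the gene passed them in DESeq2 and with robust estimation turned off. By qPCR, an assay outside these data, the study reported lower mRNA of Myl4 and Myl6b in KO muscle. The study described its qPCR results as matching its RNA sequencing, and whether the mice were the same is not stated.

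Myl6b, the essential chain of slow muscle and non-muscle cells, was lower in KO by the study's thresholds. Its counts were 107, 78 and 208 in WT and 56, 66 and 75 in KO, which are 4.34, 2.43 and 6.85 CPM against 2.26, 2.69 and 2.81. WT replicate 2 lay inside the KO range and the other WT libraries above it. In the fit the log2 fold change was -0.81 (SE 0.33, fold 0.570, edgeR quasi-likelihood test, unadjusted p = 0.0361, adjusted p = 0.477), and the exact permutation test gave p = 0.3. The call held without WT replicate 2 (-1.11) and was lost without any other library, with log2 fold changes of -0.38 without WT replicate 3 and -0.72 to -0.87 without the others. Over the alternatives the adjusted p ranged from 0.0399, without a filter on low counts, to 0.760.

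Myl6, the essential chain of smooth muscle and non-muscle cells, lies next to Myl6b on chromosome 10. It was at 67.4, 62.9 and 62.9 CPM in WT and 62.2, 48.8 and 46.6 in KO. All KO values were lower than all WT values, with KO replicate 1 close under the lowest WT library. This held for 7.87% of all genes tested, and the reverse, every KO library above every WT library, for 7.53% (0 of the 8 genes). For Myl6 the log2 fold change was -0.29 (SE 0.14, edgeR quasi-likelihood test, unadjusted p = 0.0614, adjusted p = 0.533; exact permutation test p = 0.1). Of the windows of Myl6 transcripts, 8.38% also occur in the pseudogenes Gm5526, Gm10080 and Gm8894.

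Mylk2, the kinase, was the gene of the 8 with a fold change above 0. It was at 246, 446 and 400 CPM in WT and 379, 417 and 602 in KO. WT replicate 1 was the lowest and KO replicate 3 the highest, and the 4 libraries between them were mixed. The log2 fold change was 0.36 (SE 0.24, edgeR quasi-likelihood test, adjusted p = 0.668), and it was 0.14 without WT replicate 1 and 0.13 without KO replicate 3. WT replicate 1 was also the lowest library for Mylk4, described below, and KO replicate 3 the lowest for Mylpf.

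**Figure D2:**
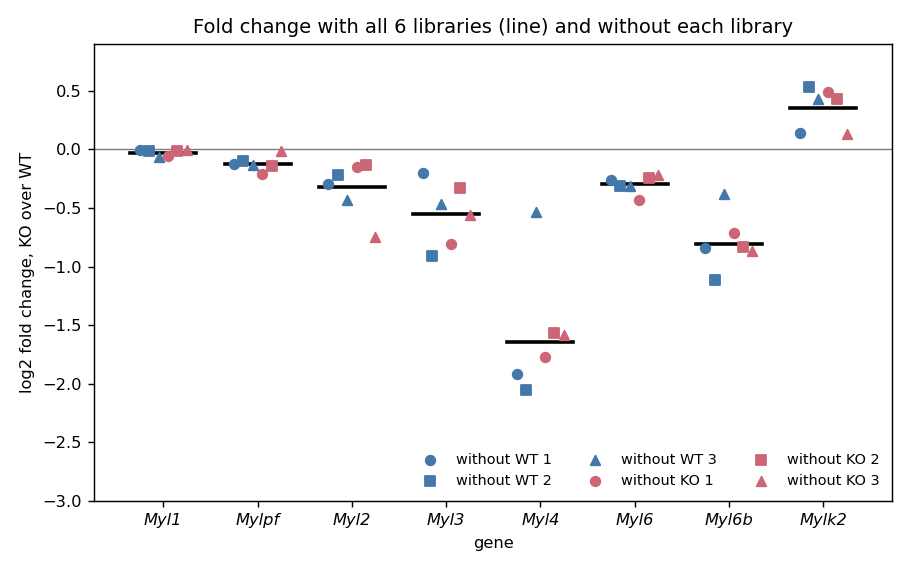
Log2 fold change of KO over WT (y axis) for each gene with all 6 libraries (black line) and with each library left out (points; colour for genotype, shape for replicate number). Leaving out WT replicate 3 moved Myl4 from -1.65 to -0.54 and Myl6b from -0.81 to -0.38. The points of the 7 light chains stayed below 0, those of Myl1 close to it, and those of Mylk2 above it.

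Within the essential class the minor chains made up a small share. Per kb, Myl1 supplied 98.8% ± 0.294 of the summed essential chain level in WT and 99.1% ± 0.125 in KO (SD, n = 3). The other four chains together were 1.31%, 0.931% and 1.51% in WT and 1.05%, 0.808% and 0.869% in KO, so WT replicate 2 lay inside the KO range. Myl6 was the largest of them at 0.728% ± 0.0203 in WT and 0.605% ± 0.0728 in KO, followed by Myl3 at 0.306% ± 0.151 and 0.211% ± 0.0637. Myl4 made up 0.127% ± 0.123 and 0.0403% ± 0.00471, and Myl6b 0.0894% ± 0.0469 and 0.0517% ± 0.00759. Of the regulatory class Myl2 was 0.0126% ± 0.00156 in WT and 0.0116% ± 0.00697 in KO. These shares are descriptions without a test, and they rest on the counted gene length.

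**Figure D3:**
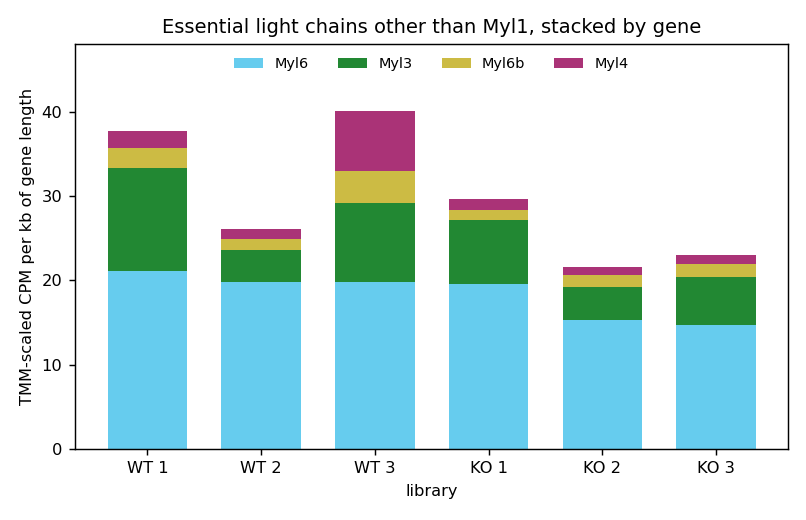
Stacked levels (TMM-scaled CPM per kb, y axis from 0) of the essential chains other than Myl1 in each library. WT replicates 1 and 3 are the tallest bars, Myl3 carries most of the difference between WT replicates 1 and 2, and the Myl4 segment is widest in WT replicate 3.

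The other genes of the pathway were taken from lists by role. Of the remaining light chains, 5 of 6 entries were tested and none passed the study's thresholds in edgeR or DESeq2, with a median log2 fold change of -0.25 and 0 with an unadjusted p under 0.05. Myl7, the atrial regulatory chain, had 0 counts in all 6 libraries, where 3 counts would be 0.0934 to 0.122 CPM. Myl12a and Myl12b, regulatory chains of non-muscle myosin, led the list: Myl12a was at 123, 245 and 141 CPM in WT and 187, 94.5 and 146 in KO, and the Myl12b identifier ENSMUSG00000117098 at 101, 202 and 120 against 161, 83.7 and 124. All 1201 counted bases of that identifier overlap exons of Myl12a or of the second Myl12b identifier, so these values are uncertain. Myl10, whose log2 fold change was -0.60 (SE 0.37, adjusted p = 0.637), passed the thresholds in fits without WT replicate 3, without a filter and with total counts alone.

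Of the other kinases that can act on light chains, 5 of 6 were tested and none passed the thresholds in edgeR or DESeq2 (median log2 fold change 0.11). Mylk4, a striated muscle kinase, was the highest at 698, 1235 and 1303 CPM in WT and 1249, 1139 and 1094 in KO, with WT replicate 1 apart from the other five. Rock2, a kinase downstream of RHOA, was next at 51.7 to 58.5 CPM over the 6 libraries. Mylk, the smooth muscle kinase, had the only unadjusted p under 0.05 of this list in edgeR's quasi-likelihood test (log2 fold change 0.42, SE 0.16, unadjusted p = 0.0237, adjusted p = 0.441; exact permutation test p = 0.2), with a fold of 1.34 under the threshold of 1.5. Mylk3, the cardiac kinase, was at 0 to 0.125 CPM and was not tested. The calmodulin genes Calm3, at 102 to 142 CPM over the 6 libraries, and Calm2, at 45.1 to 75.8, did not pass either (log2 fold changes of 0.07 and -0.08).

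None of the 4 subunits of myosin phosphatase passed the thresholds in edgeR or DESeq2, and all 4 fold changes were above 0, with a median of 0.14 on the log2 scale. Ppp1cb, the catalytic subunit, was the highest at 249, 301 and 312 CPM in WT and 259, 333 and 315 in KO, and Ppp1r12b, the targeting subunit of striated muscle, the next at 74.3 to 102 and 89.3 to 110. Ppp1r12a, the targeting subunit of smooth muscle, was at 25.4, 29.2 and 29.7 CPM in WT and 37.7, 36.8 and 29.8 in KO. Its KO libraries were all above the WT libraries, the third by a narrow margin, as held for 7.53% of all genes tested. The log2 fold change was 0.31 (SE 0.14, edgeR quasi-likelihood test, unadjusted p = 0.0426, adjusted p = 0.491), with a fold of 1.24.

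**Figure D4:**
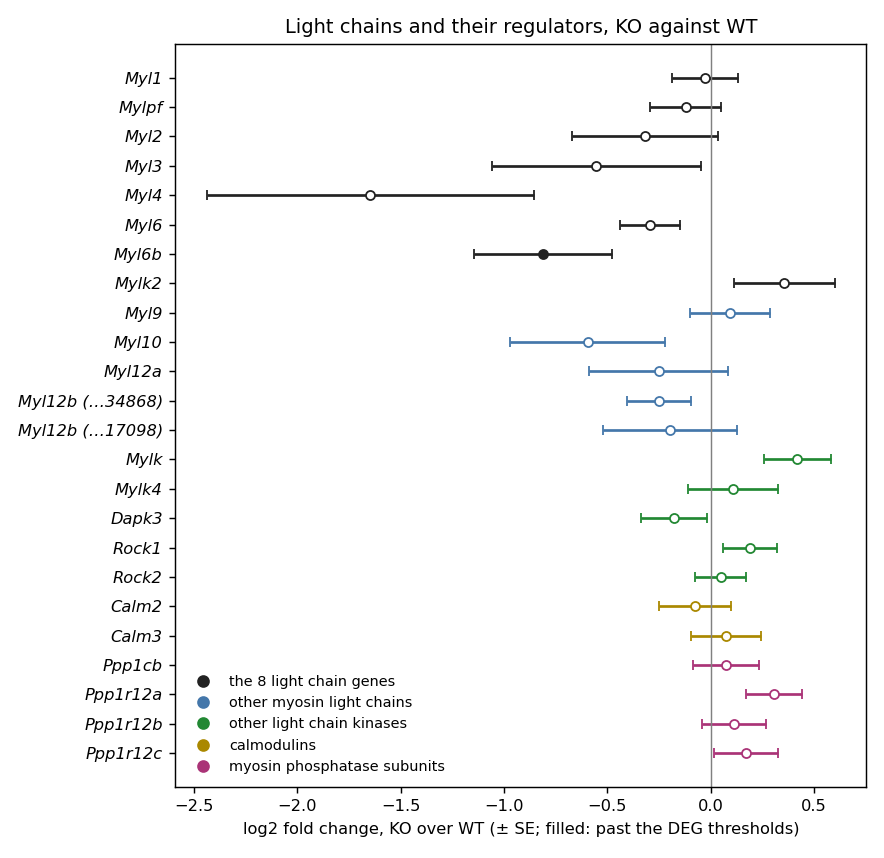
Log2 fold change of KO over WT (x axis, ± SE from edgeR's fit) for the 8 genes and the other light chains, kinases, calmodulins and phosphatase subunits reported here. Filled points passed the study's thresholds in edgeR's fit, and Myl6b at -0.81 is the only filled point. The widest bar is that of Myl4.

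The fiber genes that accompany each light chain were compared next. Of 9 adult fast genes none passed the thresholds in edgeR or DESeq2, and 0 had an unadjusted p under 0.05. Their median log2 fold change was 0.08. Myh4, the IIb heavy chain that carries Myl1 and Mylpf, was at 29623, 42872 and 34114 CPM in WT and 35836, 46028 and 42121 in KO, and Tnnt3, the fast troponin T, at 11261 to 15301 and 12918 to 14039. The fast chains Myl1 and Mylpf and the fast genes around them thus gave no call.

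Of 9 genes in the slow fiber list none passed in edgeR with robust estimation and 0 had an unadjusted p under 0.05. DESeq2 called 4 lower (Atp2a2, Myoz2, Tnnc1 and Tnni1), beside 478 lower among all 15623 genes tested. By qPCR, outside these data, the study reported lower mRNA of Myoz2 and Tnnc1 in KO muscle. The median log2 fold change of the list in edgeR was -0.61. Myh2, the IIa heavy chain, was the highest of the list at 964, 1373 and 890 CPM in WT and 1104, 1360 and 1354 in KO. Type IIa fibers are fast, so the counts and median of this list include a gene that is not slow (log2 fold change 0.24). Atp2a2, the slow calcium pump, was the next at 14.8, 16.7 and 33.1 CPM in WT against 13.7, 13.0 and 15.6 in KO. Tnni1, the slow troponin I, was at 3.97, 1.31 and 13.3 CPM in WT and 2.26, 0.652 and 0.411 in KO (log2 fold change -2.49, SE 1.17, edgeR quasi-likelihood test, adjusted p = 0.593). It was highest in WT replicate 3 and overlapped between genotypes, as Myl4 did, and without that library its log2 fold change was -1.24 and that of Atp2a2 -0.16. Myh7, the slow heavy chain that binds Myl2 and Myl3, was at 2.96, 2.18 and 1.15 CPM in WT and 2.50, 3.67 and 0.823 in KO, and its log2 fold change was 0.15 (SE 0.55).

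The developing or regenerating fiber genes, which belong to the program that uses Myl4, held 3 calls among 6 tested, all lower in KO, beside the background of 3.14%. The 3 were Chrng, the fetal subunit of the acetylcholine receptor, and Myog and Myod1, transcription factors of myogenesis. Myog was at 5.68, 3.64 and 7.15 CPM in WT and 3.30, 1.51 and 2.02 in KO (log2 fold change -1.27, SE 0.32, edgeR quasi-likelihood test, unadjusted p = 0.00282, adjusted p = 0.299). Myod1 was at 6.41, 6.69 and 8.79 against 4.15, 5.83 and 4.60 (log2 fold change -0.59, SE 0.19, same test, adjusted p = 0.340). Chrng was at 0.811, 0.685 and 2.64 against 0.524, 0.122 and 0.0748 (-2.52, SE 0.77, same test, adjusted p = 0.356). Those Chrng values are 20, 22 and 80 counts in WT and 13, 3 and 2 in KO, so its fold change rests on few counts. For each of these 3 genes the KO libraries were below all WT libraries, as held for 7.87% of all genes tested. Without WT replicate 3 the log2 fold changes were -1.63 for Chrng, -1.03 for Myog and -0.43 for Myod1, and the call of Myod1 was lost. It was also lost without KO replicate 1, which left 2 calls in either fit. Myh3, the embryonic heavy chain, was at 51.6, 121 and 84.1 CPM in WT and 12.2, 12.3 and 57.9 in KO, with KO replicate 3 above WT replicate 1 and no call (log2 fold change -1.63, SE 0.83, adjusted p = 0.613). Myh8, the perinatal heavy chain and the highest gene of the list, was at 2902 to 4733 CPM in WT and 3636 to 4921 in KO. Sequence shared between Myh8 and other heavy chains was not checked, so its level is uncertain. The list was chosen with results of these libraries known, so its count is not independent evidence of a direction. The study reported lower mRNA of Myog, Myod1 and Chrng in KO muscle by qPCR, an assay outside these data.

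**Figure D5:**
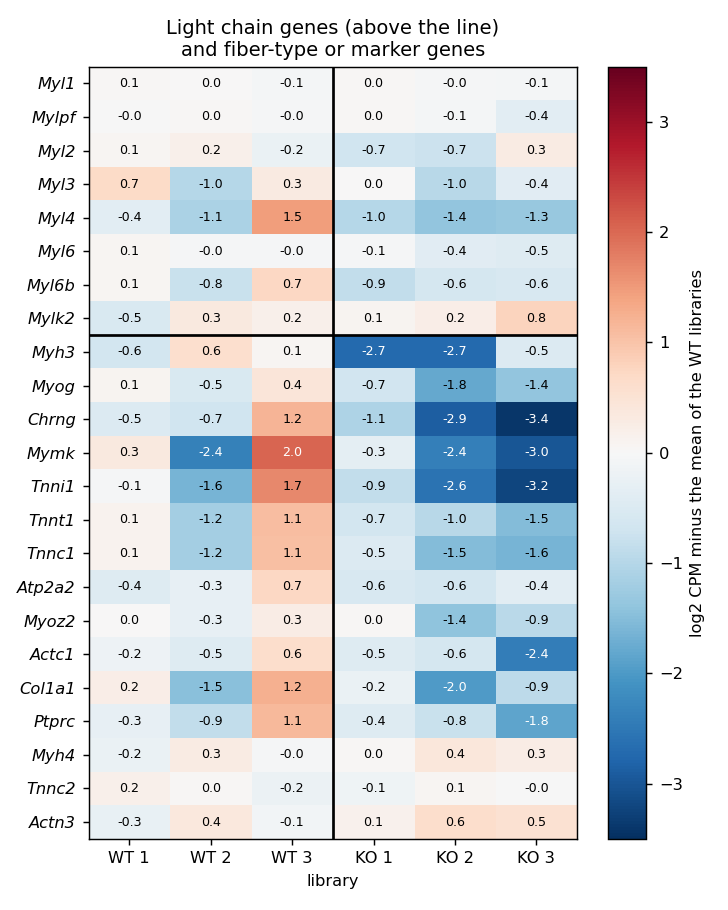
Log2 CPM minus the mean of the WT libraries (colour and printed value) for the 8 genes above the line and for fiber-type and marker genes below it, in each of the 6 libraries. WT replicate 3 is red at Myl4 (1.5), Myl6b (0.7), Chrng, Mymk, the slow troponins, Col1a1 and Ptprc, and the rows of Myl1 and the fast gene Tnnc2 are near 0 throughout.

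Markers of other cells that express some of these chains were measured beside them. Smooth muscle markers, which bear on Myl6, summed to 31.1 to 48.3 CPM in WT and 42.6 to 54.6 in KO. Of 4 tested, Myh11, the smooth muscle heavy chain, was called higher in KO (log2 fold change 0.83, SE 0.23, edgeR quasi-likelihood test, adjusted p = 0.330), beside the -0.29 of Myl6, and Smtn was the highest at 11.4 to 21.6 CPM over all libraries. Endothelial markers summed to 49.2 to 86.2 in WT and 77.1 to 90.1 in KO, with 0 of 4 called in edgeR or DESeq2 and Cdh5 (log2 fold change 0.50, SE 0.16) and Pecam1 (0.34, SE 0.17) the highest. Fibroblast markers, led by Dcn and Col3a1, summed to 115, 63.7 and 207 CPM in WT and 113, 55.9 and 89.9 in KO, with 0 of 4 called. Leukocyte markers, led by Cd68 and Cd3e, summed to 4.87 to 11.9 and 6.36 to 8.86, and Cd3e, a T cell gene, was called higher in KO (log2 fold change 1.16, SE 0.34, adjusted p = 0.316), and DESeq2 also called Ptprc lower (log2 fold change -1.21 in edgeR, and -0.39 without WT replicate 3).

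The Schwann cell marker Mbp was at 1.91 to 2.64 CPM in WT and 2.30 to 3.82 in KO and was not called, and adipocyte markers summed to at most 0.775 in any library with none tested. Cardiac markers bear on Myl2, Myl3 and Myl4, which the heart also uses. Nkx2-5, a defining cardiac factor, had 0 counts in all libraries, and Tnni3 and Ryr2 were at 0 to 0.311 and 0 to 0.0408 CPM. The summed cardiac level of 59.6 to 122 CPM in WT and 16.9 to 60.9 in KO was carried by Actc1, an actin of the heart and of developing skeletal muscle, at 69.8, 57.2 and 120 in WT and 57.2, 51.6 and 14.6 in KO, with Myh6 next at 1.51 to 3.73. WT replicate 3 was thus the highest library for Myl4 and Myl6b and also for the fibroblast, leukocyte and cardiac sums. The part of other cells in these results was not tested.

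Likeness between the genes over the 6 libraries was described by Pearson's r of log2 CPM, without a test, since the points share genotype and depth. Myl4 and Myl6b were the most alike of the 28 pairs (r = 0.930, and 0.738 without WT replicate 3), and Mylpf and Myl6 followed (0.798). Myl1 and Myl6 were at 0.692, and at 0.991 without WT replicate 3. Mylk2 ran against Myl6 (-0.737), Myl1 (-0.693) and Mylpf (-0.653). Among 11068 other genes with a mean of at least 50 counts, those most like Myl4 were Cd74 (0.990), Igf2 (0.984) and Gm49394 (0.984), which were at 0.913, 0.881 and 0.890 without WT replicate 3. Those most like Myl6b were Itm2a (0.994), Gm44732 (0.991) and Ube2z (0.984).

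For Myl6 they were Tmed9 (0.998), Rint1 (0.996) and Dhrs7 (0.991), and for Myl3 Snx22 (0.990), Abtb2 (0.987) and Crlf3 (0.984). Myl2 was most like Natd1, Aar2 and Ebpl (0.981 to 0.988), Mylpf like Rasa3, Gramd3 and Diaph2 (0.976 to 0.984), and Mylk2 like Pskh1, Cog1 and 0610005C13Rik (0.986 to 0.989). Myl1, whose values span less than those of any other of the 8 genes, was most like mt-Tg, Gm32219 and Pcp4l1 (0.982 to 0.993). With 6 libraries and so many candidates a high r is to be found for any gene, and these names describe these libraries only.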

How the data were processed

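RNA was sequenced from TA muscle of 3 WT and 3 KO libraries. The authors used HISAT2 for alignment, featureCounts for counting and DESeq2 for the comparison of genotypes. The deposited table gives the raw count of reads for 55416 genes, not normalized, beside a gene length in bases that served only for values per kb. The labels name build GRCm39, whose positions the table carries, and the methods GRCm38. Handling of strand and of reads with several matches is not given in the sources used here.

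Genotype and replicate number came from the labels. The first WT column carries no number and was taken as replicate 1, since the others name 2 and 3. Symbols were matched by Ensembl identifier for 52083 genes. The 8 genes and the gene lists were chosen with earlier results of these data known.

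Genes were kept with filterByExpr (15623 genes), scaled by TMM factors (0.893 to 1.20) and compared in edgeR (version 4.0.16, R 4.3.3) with a robust quasi-likelihood fit and Benjamini-Hochberg adjustment over all genes tested. SEs were derived from the fold change and the F statistic, and log2 CPM used a prior count of 1. An exact permutation test (two-sided) with 3 against 3 libraries cannot go below p = 0.1. Replicates of a genotype differed by more than sampling noise (chi-square per degree of freedom 19.3 to 70.5). The total counts limit the precision of the low genes, of which Myl2 had 19 to 48 counts per library. Promoters are from RefSeq (GRCm38.p6) and windows of 50 bases from GENCODE M21 transcripts. The edgeR and DESeq2 fits were tested on simulated counts with known changes, placed in genes with more counts than Myl2. The other steps were not tested in this way. Some list genes are not reported here.

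Named were the 8 genes, Selenow, list genes past the thresholds, the 2 highest genes of each list and the 3 genes most like each of the 8. Myl7, Myl10, Mylk, Mylk3, Myh3, Myh7, Tnni1, Ppp1r12a, Nkx2-5, Tnni3, Ryr2 and Mylf-ps are outside this rule and were chosen after their values were seen. Alternatives were DESeq2 (version 1.42.0), its size factors in edgeR, total counts alone, no mitochondrially encoded genes, fits without a filter or with a minimum of 10 counts per library, robust estimation off, the replicate number as a block, no division by length and leaving out each library, and, chosen after seeing the data, adding Mylf-ps counts to Myl1.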

Additional observations from a re-analysis of the deposited data

How the results depend on the processing

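The fold changes of the 7 light chains stayed below 0 and that of Mylk2 above 0 under every alternative run. The sign means little for Myl1, with a log2 fold change of -0.0011 without WT replicate 1, or for Mylpf, at -0.011 without KO replicate 3. Myl1, Mylpf, Myl2 and Mylk2 never passed the study's thresholds. The cause of the changes below was not tested, other than the fewer samples or other genes an alternative has by construction.

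Of the 8 genes, 1 passed the thresholds, and 2 did with DESeq2, with total counts alone and with robust estimation off, and 0 to 3 with a library left out. Myl4 passed with DESeq2 (-1.65, unadjusted p = 0.0292) and with robust estimation off (-1.65, 0.0112) and ranged from -2.05 to -0.54 with a library left out. Myl6 passed with total counts alone (-0.54, unadjusted p = 0.00607). With a library left out Myl3 ranged from -0.91 to -0.20 and Myl6b from -1.11 to -0.38. The 836 genes past the thresholds became 1792 with total counts alone and 1780 without a filter, and no gene with an adjusted p under 0.05 became 45 with DESeq2, 55 with total counts alone, 363 without a filter, 4 with at least 10 counts in every library and 0 to 242 with a library left out, the highest without KO replicate 2 and then 16 without KO replicate 1 and 2 without WT replicate 3. Among the regulators and other light chains 0 calls became 1 (Myl10) with total counts alone, without a filter and without WT replicate 3. Slow fiber calls went from 0 to 4 with DESeq2 and with robust estimation off, 3 without a filter, 1 with total counts alone and, with a library left out, 0 to 3 (3 without WT replicate 2, 2 without KO replicate 1 and 1 without WT replicate 1). Over all genes, calls lower in KO went from 491 to 478 with DESeq2, 555 with robust estimation off, 1163 without a filter and 1712 with total counts alone. With a library left out, calls lower in KO over all genes ranged from 396 (without WT replicate 1) to 671 (without KO replicate 2). They were 613 without WT replicate 2, 519 without WT replicate 3, 636 without KO replicate 1 and 410 without KO replicate 3. Developing fiber calls went from 3 to 5 with robust estimation off, 4 with DESeq2 and without a filter, 2 (of 4 tested) with at least 10 counts in every library and, with a library left out, 2 to 5 (2 without WT replicate 3 or KO replicate 1, 4 without KO replicate 3 and 5 without WT replicate 2). Without division by length the essential chains other than Myl1 made up 1.77% in WT and 1.27% in KO.

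The same replicate number did not pair the samples: deviations of same-numbered libraries correlated at 0.0596, 0.0440 and -0.0736, and not every library was closest to its own number. With the replicate block 1 gene had an adjusted p under 0.05, 890 passed the thresholds, and 1 regulator or other light chain (Myl10) and 3 slow fiber genes were called.

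Of the 8 genes, low counts limit Myl2 most. Chrng, with 2 to 80 counts per library, is limited by them too. For Myl7, Mylk3 and the adipocyte markers no difference was detectable at this depth.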
